A study of Mus musculus with 12 samples.

Results

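The 34 genes described here encode the enzymes and transporters of glycolysis and the pentose phosphate pathway. They were taken by symbol from a named list and are 34 of the 37614 genes counted in the files. All 34 passed the filter on low counts and so lie among the 15711 genes tested. RNA was sequenced from mouse haematopoietic stem cells (HSC) and from pre-granulocyte-macrophage progenitors (preGM), the committed precursors of granulocytes and macrophages. HSC were sorted as lineage-negative, Sca1+, Kit+, CD48-, CD150+ cells. The preGM gate was lineage-negative, Sca1-, Kit+, CD150-, CD105-, CD41- and CD16/32-. The 4 groups of 3 libraries were MLL-ENL preGM, WT preGM, MLL-ENL HSC and WT HSC. MLL-ENL cells came from a strain labelled Col1a1-MLL/ENL, and WT cells from mice labelled C57bl/6 WT. The MLL-ENL fusion joins the amino-terminal part of MLL, a regulator of Hox genes, to ENL, a protein that binds acetylated histones, and occurs in human acute leukaemia. All groups, also the WT cells, spent 48 h in culture before lysis. The medium was OptiMEM that held 10% serum, 1 µg/ml doxycycline, 5 ng/ml each of IL3 and G-CSF, and SCF (10 to 50 ng/ml). The design text presents the study as a test of the induced fusion in these cell types. Since doxycycline was present for all MLL-ENL libraries, induction of the fusion and any further difference of the strain from C57bl/6 cannot be told apart. Whether the 3 replicates of a group were independent animals or cultures is not stated in the labels. Each p-value therefore reflects the spread between libraries alone, which may be technical.

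Glycolysis splits glucose into pyruvate, with a gain of ATP and NADH, and the pyruvate is either reduced to lactate and exported or passed into mitochondria through the pyruvate dehydrogenase complex. The pentose phosphate pathway branches off at glucose 6-phosphate, where its oxidative steps make NADPH and its non-oxidative steps make ribose phosphate and return carbon to glycolysis. HSC in the marrow are known for a glycolytic metabolism that is linked to hypoxia signalling, while granulocytic cells use the pentose phosphate pathway to supply NADPH to their oxidase.

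Libraries held 38.5 to 50.3 megacounts over genes in MLL-ENL preGM, 34.7 to 44.5 in WT preGM, 19.0 to 23.5 in MLL-ENL HSC and 14.5 to 18.2 in WT HSC. A pair of preGM libraries stood apart from the others of their groups. In WT preGM replicate 2, 14 of the 34 members were over 2-fold below the mean of the other 2 libraries, against 13.2% of all genes tested. In MLL-ENL preGM replicate 1, 8 of 34 were over 2-fold above it, against 13.9% of all genes. The median share of a transcript's reads on the 5′ side of its midpoint was 42.4%, 33.0% and 33.7% in MLL-ENL preGM and 36.2%, 27.5% and 36.3% in WT preGM. In HSC it was 27.7%, 31.4% and 30.3% with MLL-ENL and 25.8%, 27.0% and 23.4% in WT. Every MLL-ENL HSC library was above every WT HSC library in this share, the genotypes overlapped in preGM, and preGM was higher than HSC in each genotype. Counts of members are therefore given with and without both libraries. Leaving them out acts on the members' own levels, as the WT library was low and the MLL-ENL one high in part of them. Genes of the sorted surface markers were measured after the culture. Of 8 such genes, 3 were higher and 5 lower in preGM than in HSC in each genotype. With MLL-ENL over WT, 2 were higher and 2 lower in preGM, against 3.7% and 3.07% of all genes. In HSC none was higher and 1 was lower, against 3.19% and 0.929% of all genes. Of the 8, 3 are described here. Slamf1, which encodes CD150, had 0.978 to 1.82 CPM in MLL-ENL preGM, 0.0895 to 0.186 in WT preGM, 12.1 to 16.7 in MLL-ENL HSC and 9.29 to 18.6 in WT HSC. Fcgr3, which encodes CD16, had 22.8 to 42.8 CPM in MLL-ENL preGM and 137 to 250.2 in WT preGM although the gate was CD16/32-. Cd48, which the HSC gate excluded, had 4.18 to 6.43 CPM in MLL-ENL HSC and 91.3 to 133 in WT HSC. The summed level of 12 granulocyte genes was 10875 to 15292 CPM in MLL-ENL preGM, 26706 to 29527 in WT preGM, 225 to 261 in MLL-ENL HSC and 280.5 to 408 in WT HSC, with none of the 12 at 0 in a group. Among markers of other cells, 7 of 8 monocyte and macrophage genes were higher in preGM than in HSC with MLL-ENL, against 8 in WT. Of 7 tested mast cell and basophil genes, 6 were higher in each genotype. Of 8 megakaryocyte and platelet genes, 1 was higher and 6 lower with MLL-ENL, against 0 and 6 in WT. Of 8 erythroid genes, 2 were higher and 3 lower with MLL-ENL, against 3 and 3 in WT. All 10 stem cell genes were lower in both genotypes. Of all genes tested, 20.4% were higher and 21.1% lower with MLL-ENL, against 18.4% and 20.1% in WT. Of 16 cell cycle genes, 11 were higher and 1 lower in preGM with MLL-ENL, against 4 and 1 in WT. Without both libraries that stood apart, 12 were higher and 1 lower with MLL-ENL, against 6 and 5 in WT. The 16 summed to 4326 to 6218 CPM in MLL-ENL preGM and 3145 to 4496 in WT preGM. In HSC they summed to 2002 to 2165 CPM with MLL-ENL and 2864 to 3081 in WT. Of 8 tested genes that mark RNA quality and stress, none was higher and 6 were lower in preGM with MLL-ENL, against 1 and 3 in WT. Without both libraries, none was higher and 6 were lower with MLL-ENL, against 1 and 5 in WT. Their summed level was 4410.2 to 7930.03 CPM in MLL-ENL preGM, 7080.0 to 9139 in WT preGM, 11462 to 13574 in MLL-ENL HSC and 10309.6 to 11940.1 in WT HSC, with Hspa1a at 0 in both HSC groups. The part of these lists in the results was not tested. In these bulk libraries, a change in the number of such cells cannot be told apart from a change in RNA per cell.

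With TMM scaling, the summed level of the 34 genes was several times higher in preGM than in HSC, apart from 1 WT preGM library. In HSC that sum was about as high with MLL-ENL as in WT. In preGM, 2 of the 3 WT libraries lay above all MLL-ENL libraries and the other far below. Levels are CPM, counts scaled to 1 megacount per library after TMM normalization, summed over the members. The sum was 17326, 17928 and 18055 CPM in MLL-ENL preGM and 23415, 7462 and 23594 CPM in WT preGM. HSC libraries averaged 5628 ± 223 CPM with MLL-ENL and 5591 ± 313 CPM in WT (SD, n = 3 each). The mean in preGM was 3.16 times that in HSC with MLL-ENL and 3.25 times in WT, and WT preGM replicate 2 was the only preGM library near the HSC level. The members took 1.44% to 1.83% of the gene counts in MLL-ENL preGM libraries and 0.462% to 1.87% in WT preGM. In HSC they took 0.727% to 0.778% with MLL-ENL and 0.585% to 0.705% in WT. By these shares, which use no TMM scaling, every MLL-ENL HSC library was above every WT HSC library. The mean share was 1.59% in MLL-ENL preGM, 1.36% in WT preGM, 0.752% in MLL-ENL HSC and 0.655% in WT HSC. By step, the ratio of preGM to HSC was 3.96 with MLL-ENL and 3.91 in WT for the steps from aldolase to pyruvate kinase. It was 2.33 and 2.30 for uptake and upper glycolysis, and 2.76 and 2.36 for lactate and pyruvate handling. For the pentose phosphate genes it was 2.12 with MLL-ENL and 3.28 in WT. Scaled per kilobase of exon, the most abundant members of MLL-ENL preGM were Aldoa, Ldha and Pkm at 1190.4, 1152 and 977 CPM per kilobase, and in WT preGM the same 3 had 1446, 977 and 727. In HSC, Ldha, Aldoa and Pkm had 354, 321 and 250.4 CPM per kilobase with MLL-ENL, against 331, 331 and 228 in WT.

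**Figure D1:**
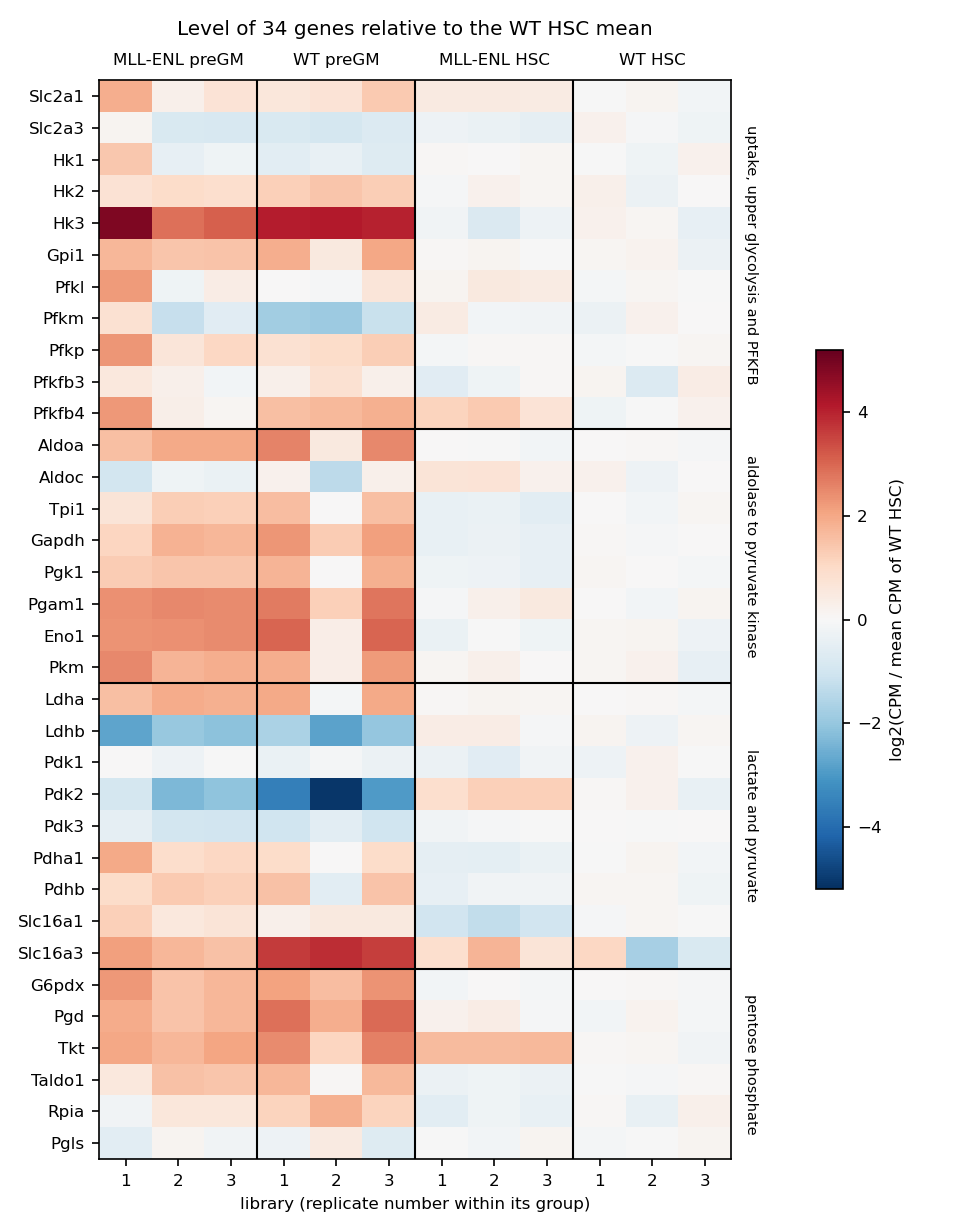
Heat map of the level of each of the 34 genes (rows, grouped by pathway step) in each of the 12 libraries (columns), as log2 of CPM over the mean of the WT HSC libraries. Most rows of the steps from aldolase to pyruvate kinase are high in preGM, with WT preGM replicate 2 paler than the other 2, while Ldhb and Pdk2 are low in preGM.

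Changes are log2 fold changes from an edgeR quasi-likelihood fit of all 12 libraries, each with its standard error (SE), and a gene counts as higher or lower where its adjusted p, by the method of Benjamini and Hochberg over all 15711 genes, is under 0.05. Between cell types, 23 members differed with MLL-ENL, 19 higher and 4 lower in preGM, against 41.5% of all genes, 20.4% higher and 21.1% lower. In WT, 26 members differed, 21 higher and 5 lower, against 38.5% of all genes, 18.4% higher and 20.1% lower. The median log2 change of the 34 members was 1.13 with MLL-ENL and 1.28 in WT, where the median over all genes was 0.00 and -0.03. The genes that rose most with MLL-ENL were Hk3, Eno1 and Pgam1, and in WT Hk3, Slc16a3 and Pgd. Those that fell most were Pdk2, Ldhb and Aldoc with MLL-ENL, and Pdk2, Ldhb and Pfkm in WT. By step, 4 of the 11 genes of uptake and upper glycolysis rose with MLL-ENL and none fell, against 6 and 2 in WT. Of the 8 genes from aldolase to pyruvate kinase, 7 rose in each genotype, and Aldoc fell with MLL-ENL. Of the 9 genes of lactate and pyruvate handling, 4 rose and 3 fell with MLL-ENL, against 3 and 3 in WT. Of the 6 pentose phosphate genes, 4 rose with MLL-ENL and 5 in WT, and none fell.

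Without both preGM libraries that stood apart, 19 members were higher and 7 lower in preGM with MLL-ENL, where 51.6% of all genes differed (25.1% higher, 26.5% lower). In WT, 23 were higher and 6 lower, where 50.9% of all genes differed (25.6% higher, 25.3% lower). By step, uptake and upper glycolysis then had 4 higher and 3 lower with MLL-ENL, the 3 being Hk1, Pfkm and Slc2a3, and 6 and 3 in WT. The steps from aldolase to pyruvate kinase had 7 and 1 with MLL-ENL and 7 and 0 in WT. Lactate and pyruvate handling had 4 and 3 with MLL-ENL and 5 and 3 in WT, and the pentose phosphate genes had 4 and 0 with MLL-ENL and 5 and 0 in WT. With only the exons beyond the midpoint towards the 3′ end, 56 of all 58 calls of members over the 5 comparisons held, and those of Pdk2 and Pfkm between genotypes in preGM did not (edgeR adjusted p = 0.0861 and 0.0593). Scaling by library size alone moved the median of all genes to -0.56 with MLL-ENL and -0.73 in WT, and the share of calls that were higher to 18.1% and 16.2%, against 49.1% and 47.8% with TMM. It left 12 members higher and 5 lower with MLL-ENL and 11 higher and 8 lower in WT. The calls lost under that scaling were those of Gpi1, Pfkp, Tpi1, Taldo1 and Pdhb in both genotypes, Hk2 and Rpia with MLL-ENL, and Slc2a1, Pfkfb4, Pgk1, Pkm and Ldha in WT. Under it, Pgls was lower in preGM in both genotypes, and Hk1 and Pdk1 in WT. A limma fit to log2(RPKM + 0.1) had 10 higher and 5 lower with MLL-ENL, and 9 higher and 8 lower in WT. The shares of all genes called higher and lower are not given here for the library size and limma fits. Their member counts therefore show how calls moved, not how the members compare with all genes.

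**Figure D2:**
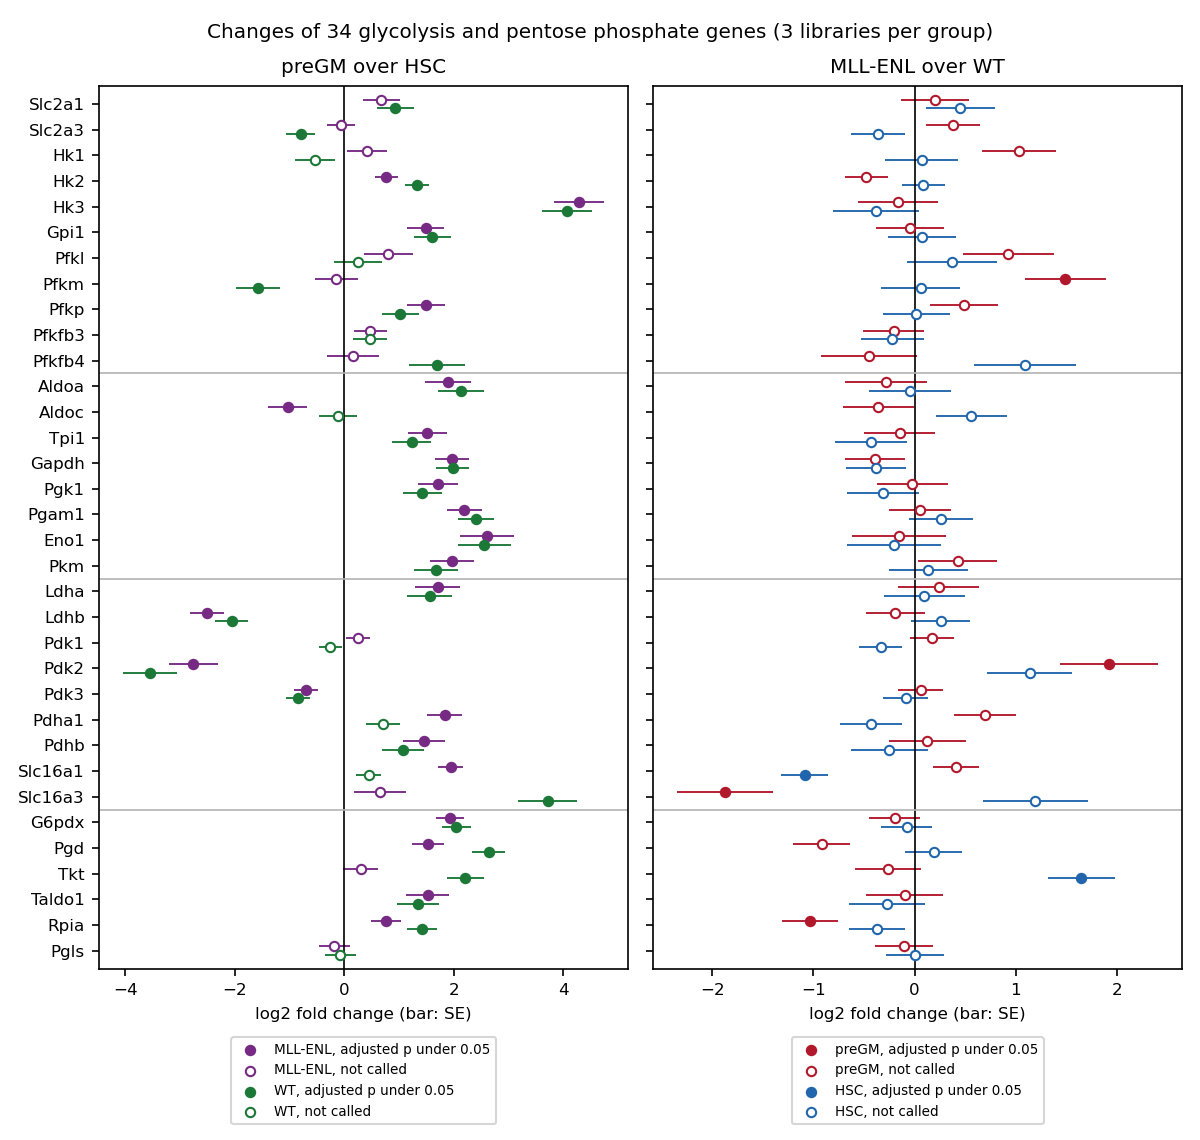
Log2 fold change (x axis, bars are 1 SE of the edgeR fit) of each of the 34 genes (rows), with preGM over HSC on the left and MLL-ENL over WT on the right. Filled points passed the adjusted p threshold: 23 and 26 of 34 on the left, for MLL-ENL and WT, and 4 and 2 of 34 on the right, for preGM and HSC.

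Glucose enters through the facilitative transporters GLUT1 and GLUT3, encoded by Slc2a1 and Slc2a3. Slc2a1 had 56.2, 18.02 and 24.9 CPM in MLL-ENL preGM, against 23.1, 24.8 and 38.6 CPM in WT preGM. In HSC, Slc2a1 had 20.8, 20.7 and 20.6 CPM with MLL-ENL, against 15.0, 16.6 and 13.8 CPM in WT. All WT preGM libraries were above all WT HSC libraries, while MLL-ENL preGM overlapped MLL-ENL HSC. The log2 change in preGM was 0.68 ± 0.34 (SE; edgeR adjusted p = 0.12) with MLL-ENL and 0.93 ± 0.34 (SE; edgeR adjusted p = 0.0414) in WT. Slc2a3 had 30.6, 15.8 and 15.6 CPM in MLL-ENL preGM, against 15.8, 14.8 and 17.1 CPM in WT preGM. In HSC, Slc2a3 had 23.2, 21.7 and 19.9 CPM with MLL-ENL, against 32.7, 26.8 and 23.6 CPM in WT. The WT groups did not overlap, and the log2 change in preGM was -0.80 ± 0.27 (SE; edgeR adjusted p = 0.0264) in WT, against -0.06 ± 0.26 (SE; edgeR adjusted p = 0.868) with MLL-ENL. MLL-ENL preGM replicate 1 was far above the other 2, and without both preGM libraries that stood apart the Slc2a3 change with MLL-ENL was -0.45 ± 0.17 (SE; edgeR adjusted p = 0.0419). For Slc2a1, leaving out MLL-ENL preGM replicate 2 gave 0.98 with MLL-ENL (edgeR adjusted p = 0.0262). Both WT calls were narrow. That of Slc2a1 did not hold when any 1 of the 6 HSC libraries, or WT preGM replicate 3, was left out (edgeR adjusted p = 0.0556 to 0.185), with a replicate block (0.0536), and under library size scaling (0.658). That of Slc2a3 did not hold when WT HSC replicate 1 or 2, or any 1 WT preGM library, was left out (0.0547 to 0.106). The share of Slc2a3 in the reads per kilobase of the pair was 21.01% in MLL-ENL preGM, 18.4% in WT preGM, 29.1% in MLL-ENL HSC and 41.8% in WT HSC.

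Hexokinases phosphorylate glucose and so trap it in the cell. Hk1 is the broadly expressed form, Hk2 an inducible form bound to mitochondria, and Hk3 a form found in granulocytes and other myeloid cells. Hk1 had 168, 48.1 and 54.9 CPM in MLL-ENL preGM, against 44.0, 49.0 and 40.0 CPM in WT preGM. In HSC, Hk1 had 66.9, 66.3 and 69.8 CPM with MLL-ENL, against 63.8, 54.8 and 74.8 CPM in WT. MLL-ENL preGM replicate 1 lay far above all other libraries, and Hk1 was not called in the fit of all libraries. The log2 change of Hk1 in preGM without both libraries that stood apart was -0.39 ± 0.14 (SE; edgeR adjusted p = 0.0348) with MLL-ENL and -0.61 ± 0.14 (SE; edgeR adjusted p = 0.00279) in WT. It was called in WT also in a fit of the WT groups alone (-0.64, edgeR adjusted p = 0.0282), and between genotypes in preGM without MLL-ENL preGM replicate 2 (1.33, edgeR adjusted p = 0.0275). Hk2 had 68.4, 78.9 and 74.7 CPM in MLL-ENL preGM, against 96.8, 113 and 99.8 CPM in WT preGM. In HSC, Hk2 had 39.3, 47.7 and 43.5 CPM with MLL-ENL, against 48.6, 33.1 and 41.3 CPM in WT. Both preGM groups lay above both HSC groups, by a log2 change of 0.77 ± 0.21 (SE; edgeR adjusted p = 0.00957) with MLL-ENL and 1.33 ± 0.22 (SE; edgeR adjusted p = 0.000183) in WT. The MLL-ENL call was lost without MLL-ENL HSC replicate 1 (edgeR adjusted p = 0.0529) and under library size scaling, where the log2 change was 0.19. Hk3 had 133, 33.1 and 39.5 CPM in MLL-ENL preGM, against 76.8, 80.8 and 72.7 CPM in WT preGM. In HSC, Hk3 had 3.99, 2.75 and 3.82 CPM with MLL-ENL, against 5.42, 4.89 and 3.44 CPM in WT. Every preGM library had several times the level of every HSC library, and the log2 change of Hk3 was the largest rise among the members, at 4.28 ± 0.46 (SE; edgeR adjusted p = 4.25e-06) with MLL-ENL and 4.06 ± 0.46 (SE; edgeR adjusted p = 4.91e-06) in WT. Between the genotypes in preGM the Hk3 log2 change was -0.16 ± 0.40 (SE; edgeR adjusted p = 0.833), and without both preGM libraries that stood apart it was -1.04 ± 0.21 (SE; edgeR adjusted p = 0.00703).

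The hexokinase reads were made up differently in the cell types. Per kilobase of exon, Hk3 took 41.8% ± 11.5 of them in MLL-ENL preGM and 49.3% ± 1.15 in WT preGM, against 6.19% ± 1.32 in MLL-ENL HSC and 8.42% ± 2.32 in WT HSC (SD, n = 3). Hk1 took 23.3% ± 4.60 in MLL-ENL preGM and 11.7% ± 0.497 in WT preGM, against 48.9% ± 1.74 in MLL-ENL HSC and 48.1% ± 4.51 in WT HSC. Groups of preGM and HSC did not overlap for either share, with an exact two-sided permutation p of 0.1 in each genotype, the smallest that 3 libraries against 3 can give. Hk2 took 34.9% and 38.9% in MLL-ENL and WT preGM, and 44.9% and 43.5% in MLL-ENL and WT HSC. The percentages depend on the exons counted. Over the longest transcript, Hk1 took 30.7% to 41.6% in MLL-ENL preGM libraries and 18.4% to 19.4% in WT preGM. In HSC it then took 60.8% to 64.3% with MLL-ENL and 58.2% to 66.7% in WT.

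Glucose 6-phosphate isomerase (Gpi1) makes fructose 6-phosphate, which phosphofructokinase (liver, muscle and platelet forms Pfkl, Pfkm and Pfkp) commits to glycolysis. Gpi1 had 1042, 847 and 877 CPM in MLL-ENL preGM, against 1152, 441 and 1267 CPM in WT preGM. In HSC, Gpi1 had 330.0, 349 and 309 CPM with MLL-ENL, against 335, 353 and 250.4 CPM in WT. Gpi1 rose in preGM by a log2 change of 1.49 ± 0.34 (SE; edgeR adjusted p = 0.0029) with MLL-ENL and 1.61 ± 0.34 (SE; edgeR adjusted p = 0.00177) in WT, and every preGM library was above every HSC library. Pfkl had 299.6, 54.9 and 85.8 CPM in MLL-ENL preGM, against 66.7, 63.0 and 102 CPM in WT preGM. In HSC, Pfkl had 72.2, 93.4 and 86.5 CPM with MLL-ENL, against 60.4, 70.2 and 64.3 CPM in WT. Apart from MLL-ENL preGM replicate 1 the groups lay close together, and Pfkl was not called in the fit of all libraries. Without MLL-ENL preGM replicate 2 it was called, at 1.20 in preGM over HSC with MLL-ENL (edgeR adjusted p = 0.0255) and at 1.32 for MLL-ENL over WT in preGM (0.0469). Pfkm had 46.1, 11.8 and 17.8 CPM in MLL-ENL preGM, against 7.70, 7.21 and 12.004 CPM in WT preGM. In HSC, Pfkm had 35.8, 24.2 and 23.9 CPM with MLL-ENL, against 21.7, 31.3 and 27.5 CPM in WT. All WT preGM libraries were below all WT HSC libraries, with a log2 change of -1.58 ± 0.40 (SE; edgeR adjusted p = 0.00614) in WT and -0.15 ± 0.39 (SE; edgeR adjusted p = 0.787) with MLL-ENL. Without MLL-ENL preGM replicate 1 the Pfkm change with MLL-ENL was -0.91 (edgeR adjusted p = 0.0224). Pfkp had 265, 82.6 and 113 CPM in MLL-ENL preGM, against 94.0, 103 and 131 CPM in WT preGM. In HSC, Pfkp had 50.7, 56.2 and 56.8 CPM with MLL-ENL, against 50.6, 53.7 and 57.4 CPM in WT. Pfkp rose in preGM by a log2 change of 1.49 ± 0.34 (SE; edgeR adjusted p = 0.00267) with MLL-ENL and 1.02 ± 0.34 (SE; edgeR adjusted p = 0.0249) in WT. Without MLL-ENL preGM replicate 1, the Pfkp change with MLL-ENL was 0.85. The WT call of Pfkp was lost without any 1 WT HSC library or WT preGM replicate 3 (edgeR adjusted p = 0.0503 to 0.0878). Of the bases counted for Pfkp, 19.4% lie in exons that touch another gene, and on the remaining exons the WT change was 1.55.

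Within the phosphofructokinase reads per kilobase, Pfkl held 54.1% in MLL-ENL preGM, 54.2% in WT preGM, 55.5% in MLL-ENL HSC and 50.0% in WT HSC. Pfkm took 15.2% and 9.34% in MLL-ENL and WT preGM, against 27.6% and 30.5% in MLL-ENL and WT HSC, while Pfkp took 30.7% and 36.5% in preGM against 16.9% and 19.5% in HSC. Pfkfb3 and Pfkfb4 encode bifunctional enzymes that set the level of fructose 2,6-bisphosphate, the main activator of phosphofructokinase. Pfkfb3 had 18.1, 14.9 and 11.1 CPM in MLL-ENL preGM, against 14.8, 21.6 and 14.7 CPM in WT preGM. In HSC, Pfkfb3 had 8.13, 10.6 and 13.1 CPM with MLL-ENL, against 13.6, 7.56 and 16.0 CPM in WT. The 4 groups of Pfkfb3 overlapped. Pfkfb4 had 6.79, 1.79 and 1.52 CPM in MLL-ENL preGM, against 4.18, 4.65 and 5.09 CPM in WT preGM. In HSC, Pfkfb4 had 3.16, 3.66 and 2.33 CPM with MLL-ENL, against 1.23, 1.40 and 1.66 CPM in WT. WT preGM libraries lay above WT HSC libraries, and the log2 change of Pfkfb4 in preGM was 1.70 ± 0.51 (SE; edgeR adjusted p = 0.0151) in WT, against 0.15 ± 0.48 (SE; edgeR adjusted p = 0.821) with MLL-ENL. With MLL-ENL the sign rests on preGM replicate 1, as the other 2 preGM libraries lay below every MLL-ENL HSC library. The Pfkfb4 change was -0.88 ± 0.38 (SE; edgeR adjusted p = 0.0711) without both preGM libraries that stood apart and -0.87 with voom and library weights (limma adjusted p = 0.00962). The WT call was lost without WT HSC replicate 1 (edgeR adjusted p = 0.0509).

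**Figure D3:**
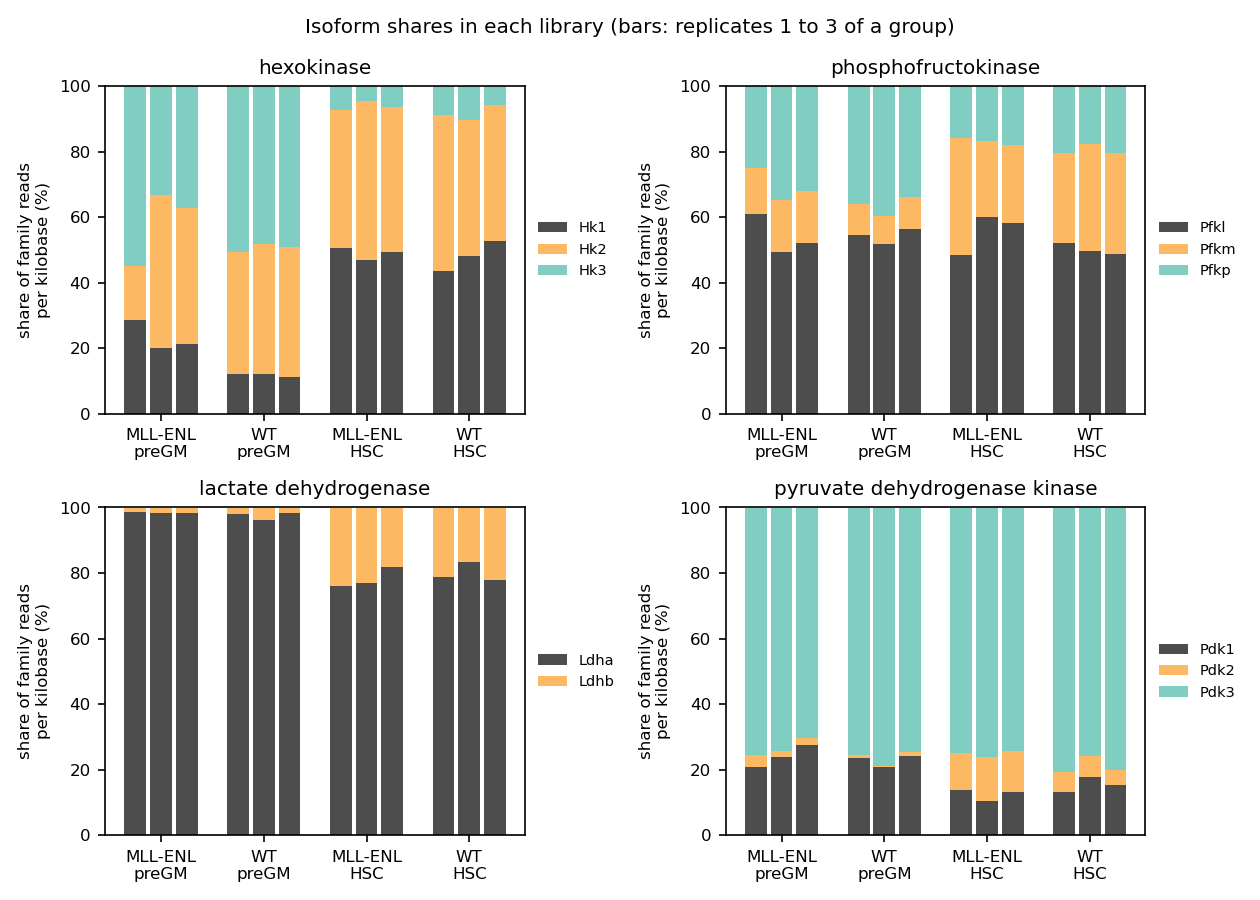
Stacked bars of the share (percent, y axis) of each form in the reads per kilobase of exon of its family in each library (bars, replicates 1 to 3 of each group, x axis), for hexokinase, phosphofructokinase, lactate dehydrogenase and pyruvate dehydrogenase kinase. As group means, Hk3 takes 41.8% and 49.3% of hexokinase reads in MLL-ENL and WT preGM, against 6.19% and 8.42% in MLL-ENL and WT HSC, and Ldhb takes 1.47% and 2.43% of lactate dehydrogenase reads in MLL-ENL and WT preGM, against 21.7% and 19.95% in MLL-ENL and WT HSC.

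Aldolase cleaves fructose 1,6-bisphosphate, and Aldoa is the form of most tissues while Aldoc is best known from brain. Aldoa had 2620.2, 3459 and 3416 CPM in MLL-ENL preGM, against 5333, 1239 and 4965 CPM in WT preGM. In HSC, Aldoa had 896, 863 and 798 CPM with MLL-ENL, against 881, 924 and 836 CPM in WT. Every preGM library was above every HSC library, WT preGM replicate 2 by the least, and the log2 change of Aldoa was 1.89 ± 0.42 (SE; edgeR adjusted p = 0.00214) with MLL-ENL and 2.13 ± 0.42 (SE; edgeR adjusted p = 0.000962) in WT. Aldoc had 8.56, 14.3 and 13.2 CPM in MLL-ENL preGM, against 19.5, 6.47 and 20.2 CPM in WT preGM. In HSC, Aldoc had 26.9, 27.5 and 19.6 CPM with MLL-ENL, against 19.4, 14.0 and 16.9 CPM in WT. Aldoc fell in MLL-ENL preGM, by a log2 change of -1.04 ± 0.35 (SE; edgeR adjusted p = 0.0271), against -0.12 ± 0.35 (SE; edgeR adjusted p = 0.815) in WT. That call was lost when replicate 1 or 2 of MLL-ENL HSC, or replicate 1 or 3 of MLL-ENL preGM, was left out (edgeR adjusted p = 0.0511 to 0.0901). Aldoc never exceeded 2.29% of aldolase reads per kilobase as a group mean. Triose phosphate isomerase (Tpi1) interconverts the products of aldolase. Tpi1 had 497, 771 and 736 CPM in MLL-ENL preGM, against 965, 315 and 936 CPM in WT preGM. In HSC, Tpi1 had 240.2, 247 and 212 CPM with MLL-ENL, against 323, 283 and 338 CPM in WT. Tpi1 rose in preGM by a log2 change of 1.52 ± 0.36 (SE; edgeR adjusted p = 0.00341) with MLL-ENL and 1.23 ± 0.36 (SE; edgeR adjusted p = 0.0125) in WT, and WT preGM replicate 2 overlapped WT HSC. In WT the call did not hold when WT HSC replicate 2, or WT preGM replicate 1 or 3, was left out (edgeR adjusted p = 0.0514 to 0.0654).

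Glyceraldehyde 3-phosphate dehydrogenase (Gapdh) makes the NADH of glycolysis, and phosphoglycerate kinase (Pgk1) its first ATP. Gapdh had 995, 1600.4 and 1521 CPM in MLL-ENL preGM, against 2239, 1152 and 2005 CPM in WT preGM. In HSC, Gapdh had 349, 366 and 338 CPM with MLL-ENL, against 482, 433 and 458 CPM in WT. Every preGM library was above every HSC library, and the log2 change of Gapdh was 1.97 ± 0.31 (SE; edgeR adjusted p = 0.000137) with MLL-ENL and 1.97 ± 0.31 (SE; edgeR adjusted p = 0.000118) in WT. The Gapdh values are uncertain in 2 respects. Genes near-identical to it, mostly pseudogenes, held 9.20% to 14.6% of the joint reads, and 86.6% of its counted bases lie in exons that touch another gene. Pgk1 had 419, 468 and 461 CPM in MLL-ENL preGM, against 584, 170.1 and 615 CPM in WT preGM. In HSC, Pgk1 had 144, 141 and 126 CPM with MLL-ENL, against 181, 170.2 and 159 CPM in WT. Pgk1 rose in preGM by a log2 change of 1.71 ± 0.36 (SE; edgeR adjusted p = 0.00168) with MLL-ENL and 1.42 ± 0.36 (SE; edgeR adjusted p = 0.00576) in WT, although WT preGM replicate 2 lay within the WT HSC range. Phosphoglycerate mutase (Pgam1) and enolase (Eno1) carry the carbon on to phosphoenolpyruvate. Pgam1 had 75.4, 82.0 and 80.2 CPM in MLL-ENL preGM, against 95.4, 34.6 and 99.0 CPM in WT preGM. In HSC, Pgam1 had 13.9, 17.6 and 20.5 CPM with MLL-ENL, against 14.5, 13.1 and 15.9 CPM in WT. No preGM library overlapped HSC, and the log2 change of Pgam1 was 2.19 ± 0.33 (SE; edgeR adjusted p = 9.17e-05) with MLL-ENL and 2.40 ± 0.33 (SE; edgeR adjusted p = 3.77e-05) in WT. Eno1 had 1887, 1941 and 2051 CPM in MLL-ENL preGM, against 3026, 472 and 3045 CPM in WT preGM. In HSC, Eno1 had 289, 361 and 313 CPM with MLL-ENL, against 398, 404 and 309 CPM in WT. Eno1 had the largest log2 rise of the steps from aldolase to pyruvate kinase, at 2.61 ± 0.49 (SE; edgeR adjusted p = 0.000679) with MLL-ENL and 2.56 ± 0.49 (SE; edgeR adjusted p = 0.000768) in WT.

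Pyruvate kinase makes pyruvate and the second ATP of glycolysis. Pkm had 3374, 2027 and 2219 CPM in MLL-ENL preGM, against 2204, 755 and 2713 CPM in WT preGM. In HSC, Pkm had 633, 711 and 608 CPM with MLL-ENL, against 634, 697 and 446 CPM in WT. Pkm rose in preGM by a log2 change of 1.96 ± 0.40 (SE; edgeR adjusted p = 0.0013) with MLL-ENL and 1.67 ± 0.40 (SE; edgeR adjusted p = 0.0039) in WT, with every preGM library above every HSC library. Pkm transcripts hold 1 of 2 mutually exclusive exons, which give the constitutively active M1 enzyme of muscle and brain or the regulated M2 enzyme of proliferating cells. The exons were counted separately in the files, and their sequences are shown because the ratio of their reads is what separates the isoforms. Both lie on the + strand of chromosome 9 (GRCm38, from GENCODE M21 transcripts), at chr9:59675029-59675195 for M1 and chr9:59675568-59675734 for M2. Each has 167 bases, of which 64, in capitals, differ between the exons (61.7% identical).
Pkm M1 exon: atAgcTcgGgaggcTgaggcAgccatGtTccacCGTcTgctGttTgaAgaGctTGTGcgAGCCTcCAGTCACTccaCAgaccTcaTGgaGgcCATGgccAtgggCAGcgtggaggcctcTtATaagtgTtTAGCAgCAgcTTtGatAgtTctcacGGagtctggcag
Pkm M2 exon: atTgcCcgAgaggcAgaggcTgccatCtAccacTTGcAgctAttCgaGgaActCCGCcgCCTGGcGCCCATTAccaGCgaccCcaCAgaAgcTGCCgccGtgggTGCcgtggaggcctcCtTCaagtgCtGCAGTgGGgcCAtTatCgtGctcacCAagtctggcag

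The M2 exon held most reads in every library. The M1 share of the reads on both exons was 7.28%, 6.49% and 6.78% in MLL-ENL preGM and 4.52%, 5.90% and 4.63% in WT preGM. In HSC it was 18.7%, 12.3% and 16.4% with MLL-ENL, against 16.6%, 13.2% and 11.7% in WT. All preGM libraries were below all HSC libraries, with means of 6.85% ± 0.402 in MLL-ENL preGM, 5.02% ± 0.769 in WT preGM, 15.8% ± 3.23 in MLL-ENL HSC and 13.9% ± 2.52 in WT HSC (SD, n = 3 each). The exact two-sided permutation p was 0.1 for preGM against HSC in each genotype and for MLL-ENL against WT in preGM, and 0.5 for MLL-ENL against WT in HSC. The M1 exon held 32 to 867 reads in a library. Reads that span only the neighbouring exons do not enter this share, and the exon counts rest on amplified reads without molecular identifiers, so counting precision is not that of molecules.

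**Figure D4:**
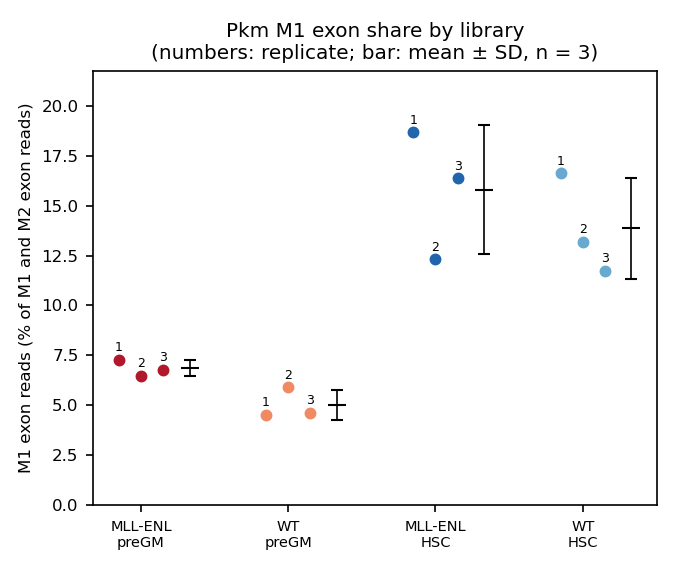
Share of the M1 exon in the reads on the M1 and M2 exons of Pkm (percent, y axis) for each library (points) of the 4 groups (x axis), with mean and SD. All 6 preGM libraries lie below all 6 HSC libraries.

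Lactate dehydrogenase interconverts pyruvate and lactate, and its A subunit (Ldha) is the one of glycolytic tissues while the B subunit (Ldhb) is high in heart. The subunits moved in opposite directions. Ldha had 2872, 3662 and 3460.3 CPM in MLL-ENL preGM, against 3806, 898 and 3772 CPM in WT preGM. In HSC, Ldha had 989.7, 1051 and 1029 CPM with MLL-ENL, against 967, 1006 and 902 CPM in WT. WT preGM replicate 2 lay at the HSC level and the other 5 preGM libraries far above it. Ldha rose in preGM by a log2 change of 1.70 ± 0.41 (SE; edgeR adjusted p = 0.0041) with MLL-ENL and 1.56 ± 0.41 (SE; edgeR adjusted p = 0.00732) in WT. Ldhb had 19.3, 32.6 and 29.7 CPM in MLL-ENL preGM, against 41.9, 19.0 and 32.1 CPM in WT preGM. In HSC, Ldhb had 169, 171 and 124 CPM with MLL-ENL, against 141, 109 and 139 CPM in WT. Every preGM library was below every HSC library, and the log2 change of Ldhb was -2.51 ± 0.31 (SE; edgeR adjusted p = 1.6e-05) with MLL-ENL and -2.06 ± 0.30 (SE; edgeR adjusted p = 7.31e-05) in WT. Ldhb took 1.47% of the reads per kilobase of the pair in MLL-ENL preGM and 2.43% in WT preGM, against 21.7% in MLL-ENL HSC and 19.95% in WT HSC.

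Lactate leaves the cell through the monocarboxylate transporters MCT1 (Slc16a1), which carries lactate and pyruvate in either direction, and MCT4 (Slc16a3), an exporter of glycolytic cells. Slc16a1 had 100.5, 61.0 and 66.6 CPM in MLL-ENL preGM, against 50.9, 60.4 and 60.4 CPM in WT preGM. In HSC, Slc16a1 had 21.01, 17.4 and 21.1 CPM with MLL-ENL, against 39.9, 45.2 and 41.2 CPM in WT. MLL-ENL HSC had the lowest libraries and did not overlap WT HSC, while both preGM groups were above WT HSC. The log2 change of Slc16a1 in preGM was 1.94 ± 0.24 (SE; edgeR adjusted p = 1.45e-05) with MLL-ENL and 0.44 ± 0.23 (SE; edgeR adjusted p = 0.137) in WT, and without both preGM libraries that stood apart it was 0.41 ± 0.14 (SE; edgeR adjusted p = 0.0256) in WT. Slc16a3 had 5.23, 3.93 and 3.45 CPM in MLL-ENL preGM, against 14.7, 17.1 and 14.4 CPM in WT preGM. In HSC, Slc16a3 had 2.18, 3.98 and 1.91 CPM with MLL-ENL, against 2.51, 0.362 and 0.676 CPM in WT. Every WT preGM library of Slc16a3 lay above every other library, and its log2 change in preGM was 3.71 ± 0.54 (SE; edgeR adjusted p = 6.1e-05) in WT, against 0.65 ± 0.47 (SE; edgeR adjusted p = 0.288) with MLL-ENL. Its HSC levels were low, with 0.362 CPM in the lowest library.

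The pyruvate dehydrogenase complex feeds pyruvate carbon into the mitochondrial cycle, with Pdha1 and Pdhb as the subunits of its first enzyme, and the kinases Pdk1, Pdk2 and Pdk3 switch it off. Pdha1 had 365, 175 and 197 CPM in MLL-ENL preGM, against 180.5, 94.1 and 179 CPM in WT preGM. In HSC, Pdha1 had 67.7, 65.7 and 73.6 CPM with MLL-ENL, against 91.3, 102 and 85.4 CPM in WT. Pdha1 rose in preGM with MLL-ENL by a log2 change of 1.83 ± 0.32 (SE; edgeR adjusted p = 0.000322), against 0.70 ± 0.31 (SE; edgeR adjusted p = 0.0818) in WT. Of its counted bases, 46.6% lie in exons that touch another gene, and on the remaining exons the WT change of Pdha1 was 1.59 (edgeR adjusted p = 0.0025). It was 0.96 ± 0.11 (SE; edgeR adjusted p = 7.1e-06) in WT without both preGM libraries that stood apart. Pdhb had 263, 345 and 314 CPM in MLL-ENL preGM, against 384, 91.8 and 369.7 CPM in WT preGM. In HSC, Pdhb had 100.1, 119 and 119 CPM with MLL-ENL, against 143, 143 and 116 CPM in WT. Pdhb rose in preGM by a log2 change of 1.45 ± 0.39 (SE; edgeR adjusted p = 0.00771) with MLL-ENL and 1.07 ± 0.39 (SE; edgeR adjusted p = 0.0375) in WT. The WT call was lost without any 1 HSC library or WT preGM replicate 1 or 3 (edgeR adjusted p = 0.0517 to 0.17), in a fit of the WT groups alone (0.142) and with a replicate block (0.0731).

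Of the kinases, Pdk2 and Pdk3 were lower in preGM, and Pdk1 was not called in the fit of all libraries. Under library size scaling Pdk1 stood at -0.97 in WT (edgeR adjusted p = 0.00532). Pdk1 had 32.2, 26.5 and 31.3 CPM in MLL-ENL preGM, against 25.0, 29.4 and 25.5 CPM in WT preGM. In HSC, Pdk1 had 26.1, 21.4 and 28.1 CPM with MLL-ENL, against 26.8, 37.5 and 31.2 CPM in WT. The groups of Pdk1 overlapped. Pdk2 had 2.44, 0.909 and 1.08 CPM in MLL-ENL preGM, against 0.388, 0.140 and 0.597 CPM in WT preGM. In HSC, Pdk2 had 8.54, 10.9 and 10.96 CPM with MLL-ENL, against 4.86, 5.39 and 3.57 CPM in WT. Every MLL-ENL HSC library was above every WT HSC library, and every preGM library was below both. Pdk2 fell in preGM, with a log2 change of -2.76 ± 0.44 (SE; edgeR adjusted p = 0.000185) with MLL-ENL and -3.54 ± 0.49 (SE; edgeR adjusted p = 4.39e-05) in WT. WT preGM levels rest on few reads, with a lowest count of 3. Pdk3 had 40.5, 28.5 and 27.6 CPM in MLL-ENL preGM, against 27.5, 38.2 and 27.2 CPM in WT preGM. In HSC, Pdk3 had 48.8, 53.0 and 55.5 CPM with MLL-ENL, against 56.2, 54.8 and 56.0 CPM in WT. Pdk3 fell in preGM, with a log2 change of -0.70 ± 0.22 (SE; edgeR adjusted p = 0.0202) with MLL-ENL and -0.85 ± 0.22 (SE; edgeR adjusted p = 0.00759) in WT. The MLL-ENL call of Pdk3 did not hold when MLL-ENL HSC or MLL-ENL preGM replicate 2 or 3 was left out (edgeR adjusted p = 0.0575 to 0.0912). Pdk3 was the main form in every group, with 73.4% of the kinase reads per kilobase in MLL-ENL preGM, 76.3% in WT preGM, 75.2% in MLL-ENL HSC and 79.0% in WT HSC. Pdk2 took 2.74%, 0.848%, 12.3% and 5.54% in the same 4 groups.

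The oxidative branch of the pentose phosphate pathway starts with glucose 6-phosphate dehydrogenase (G6pdx) and runs through 6-phosphogluconolactonase (Pgls) and 6-phosphogluconate dehydrogenase (Pgd), and both dehydrogenases make NADPH. G6pdx had 208, 125 and 144 CPM in MLL-ENL preGM, against 189.7, 132 and 224 CPM in WT preGM. In HSC, G6pdx had 39.4, 44.4 and 41.1 CPM with MLL-ENL, against 44.3, 45.9 and 41.9 CPM in WT. Every preGM library was above every HSC library by at least 2-fold, and the log2 change of G6pdx was 1.93 ± 0.26 (SE; edgeR adjusted p = 3.97e-05) with MLL-ENL and 2.05 ± 0.26 (SE; edgeR adjusted p = 1.89e-05) in WT. Pgd had 203, 150.4 and 181 CPM in MLL-ENL preGM, against 392, 199 and 419 CPM in WT preGM. In HSC, Pgd had 62.7, 70.7 and 51.6 CPM with MLL-ENL, against 49.4, 61.7 and 51.0 CPM in WT. Pgd rose in preGM by a log2 change of 1.53 ± 0.29 (SE; edgeR adjusted p = 0.00065) with MLL-ENL and 2.64 ± 0.30 (SE; edgeR adjusted p = 5.3e-06) in WT, and its highest libraries were WT preGM replicates 1 and 3. Pgls ranged from 10.5 to 23.4 CPM over the 12 libraries and was not called in the fit of all libraries. Under library size scaling its change in preGM was -0.79 with MLL-ENL and -0.82 in WT (edgeR adjusted p = 0.0187 and 0.0138).

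In the non-oxidative branch, ribose 5-phosphate isomerase (Rpia) makes ribose 5-phosphate, and transketolase (Tkt) and transaldolase (Taldo1) exchange carbon units with glycolysis. Tkt had 529, 433 and 544 CPM in MLL-ENL preGM, against 723, 281 and 804 CPM in WT preGM. In HSC, Tkt had 403, 406 and 415 CPM with MLL-ENL, against 137, 139 and 115 CPM in WT. Tkt was lowest in WT HSC, by a wide margin from MLL-ENL HSC. The log2 change of Tkt in preGM was 2.21 ± 0.34 (SE; edgeR adjusted p = 0.000104) in WT, against 0.30 ± 0.32 (SE; edgeR adjusted p = 0.48) with MLL-ENL. Taldo1 had 648, 1269.7 and 1201 CPM in MLL-ENL preGM, against 1467, 450.2 and 1421 CPM in WT preGM. In HSC, Taldo1 had 359, 378 and 350.3 CPM with MLL-ENL, against 430.5, 424 and 458 CPM in WT. Taldo1 rose in preGM by a log2 change of 1.52 ± 0.39 (SE; edgeR adjusted p = 0.00555) with MLL-ENL and 1.35 ± 0.38 (SE; edgeR adjusted p = 0.0117) in WT. The WT call was lost without WT preGM replicate 1 or 3 (edgeR adjusted p = 0.0602 and 0.0507). Rpia had 15.1, 26.3 and 26.2 CPM in MLL-ENL preGM, against 38.1, 61.8 and 38.5 CPM in WT preGM. In HSC, Rpia had 11.9, 14.9 and 13.2 CPM with MLL-ENL, against 18.1, 13.3 and 20.5 CPM in WT. Rpia was highest in WT preGM, with a log2 change in preGM of 0.76 ± 0.28 (SE; edgeR adjusted p = 0.039) with MLL-ENL and 1.42 ± 0.28 (SE; edgeR adjusted p = 0.000986) in WT. The MLL-ENL call was lost without any 1 MLL-ENL HSC library or MLL-ENL preGM replicate 2 or 3 (edgeR adjusted p = 0.0637 to 0.129) and with a replicate block (0.0508).

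**Figure D5:**
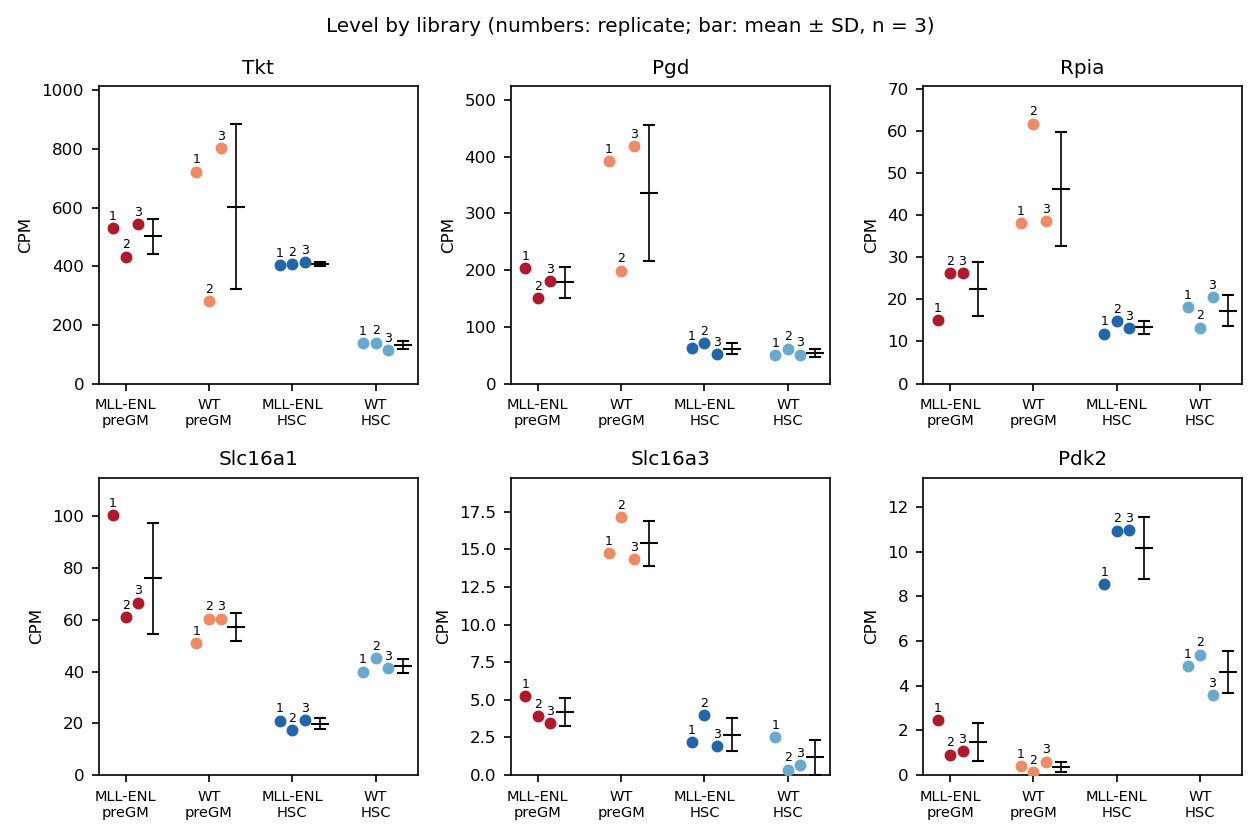
CPM (y axis, one panel per gene) of Tkt, Pgd, Rpia, Slc16a1, Slc16a3 and Pdk2 in each library (points) of the 4 groups (x axis), with mean and SD. Slc16a1 is lowest in MLL-ENL HSC, Tkt is lowest in WT HSC, and Slc16a3 is highest in WT preGM.

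Within HSC, MLL-ENL and WT libraries differed in 2 of the 34 genes. Tkt (chr14:30548359-30574720, + strand, GRCm38) was higher, by a log2 change of 1.65 ± 0.33 (SE; edgeR adjusted p = 0.0104). Slc16a1 (chr3:104638668-104658462, + strand) was lower, by -1.09 ± 0.23 (SE; edgeR adjusted p = 0.0141). The groups did not overlap for these 2 genes, nor for 34.8% of all genes. Of all genes tested, 4.12% differed, with 3.19% higher and 0.929% lower, and the median log2 change was 0.01 over the members and 0.02 over all genes. Of the calls, 77.4% were higher, against 87.9% under library size scaling, where the median of all genes was 0.21. With TMM, the summed level of all members in MLL-ENL HSC was 1.01 times that of WT HSC. Under library size scaling the sums were 7519 CPM in MLL-ENL HSC and 6551 CPM in WT HSC. The Tkt call held under all 26 alternatives run, with edgeR, DESeq2 or limma adjusted p of 5.9e-07 to 0.0473. The Slc16a1 call was lost without any 1 MLL-ENL HSC library or WT HSC replicate 2 (edgeR adjusted p = 0.055 to 0.0921), under library size scaling (0.101) and in limma (0.0696). Slc16a3 was called higher without WT HSC replicate 1, at 2.40 (edgeR adjusted p = 0.0137). Without both preGM libraries that stood apart, in a fit that holds the same HSC libraries, 4 members were higher and 6 lower, against 21.3% of all genes (10.2% higher, 11.1% lower). The others higher there were Aldoc, Pdk2 and Pfkfb4, and the others lower were Tpi1, Gapdh, Pdha1, Pgk1 and Taldo1. The values of the lower ones were small, as for Tpi1 at -0.43 ± 0.09 (SE; edgeR adjusted p = 0.00485) and Gapdh at -0.38 ± 0.08 (SE; edgeR adjusted p = 0.00504), while Pdk2 stood at 1.13 ± 0.28 (SE; edgeR adjusted p = 0.0105).

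Within preGM, 4 of the 34 genes differed between MLL-ENL and WT, against 6.77% of all genes, 3.7% higher and 3.07% lower. Pdk2 was higher, by a log2 change of 1.92 ± 0.48 (SE; edgeR adjusted p = 0.0242), and Pfkm (chr15:98092589-98132451, + strand, GRCm38) was higher by 1.49 ± 0.40 (SE; edgeR adjusted p = 0.0351). Slc16a3 (chr11:120948480-120960868, + strand) was lower, by -1.87 ± 0.47 (SE; edgeR adjusted p = 0.0255). Rpia (chr6:70765720-70792232, - strand) was lower by -1.03 ± 0.28 (SE; edgeR adjusted p = 0.0336). The median log2 change was -0.07 over the members and 0.08 over all genes. Of all calls, 54.7% were higher, against 74.9% under library size scaling, where the median of all genes was 0.41. Groups did not overlap for Pdk2, Slc16a3 and Rpia, and overlapped for Pfkm, and they did not overlap for 27.8% of all genes. Without both preGM libraries that stood apart, none of these 4 calls held. The log2 change was then 1.00 ± 0.40 (SE; edgeR adjusted p = 0.186) for Pdk2, 0.58 ± 0.29 (SE; edgeR adjusted p = 0.315) for Pfkm, -1.98 ± 0.58 (SE; edgeR adjusted p = 0.0596) for Slc16a3 and -0.55 ± 0.20 (SE; edgeR adjusted p = 0.146) for Rpia. Leaving out MLL-ENL preGM replicate 1 alone or WT preGM replicate 1 or 2 alone also ended all 4 calls (edgeR adjusted p = 0.0524 to 0.214). The calls of Slc16a3 were further lost without any other preGM library (0.055 to 0.0771), those of Pfkm without MLL-ENL HSC replicate 2 or 3 (0.0518 and 0.0521), and those of Rpia without any 1 MLL-ENL HSC library (0.051 to 0.0552). Library size scaling ended the calls of Slc16a3 (0.085) and Rpia (0.0709), limma on log2(RPKM + 0.1) all 4 (limma adjusted p = 0.0602 to 0.0978), and a replicate block that of Pfkm (0.0671). In a fit of the preGM groups alone the call of Slc16a3 held and those of Pdk2, Pfkm and Rpia did not (0.106 to 0.126).

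Without those libraries, 8 members were lower in MLL-ENL preGM and none was higher (7.14% of all genes, 3.52% higher and 3.62% lower). That fit lacks a library of each genotype in preGM. Of the members, 14 of 34 were over 2-fold low in the WT library left out, and 8 of 34 over 2-fold high in the MLL-ENL one. Leaving these out by itself lowers the change of MLL-ENL over WT for such members, so the lean to lower values is no independent result. Pgd stood at a log2 change of -1.29 ± 0.16 (SE; edgeR adjusted p = 0.00015), where the fit of all libraries gave -0.92 ± 0.28 (SE; edgeR adjusted p = 0.065). Hk3 stood at -1.04 ± 0.21 (SE; edgeR adjusted p = 0.00703), Tkt at -0.64 ± 0.13 (SE; edgeR adjusted p = 0.0064), G6pdx at -0.62 ± 0.13 (SE; edgeR adjusted p = 0.00839), Eno1 at -0.61 ± 0.14 (SE; edgeR adjusted p = 0.0139), Aldoa at -0.58 ± 0.10 (SE; edgeR adjusted p = 0.0018), Gapdh at -0.44 ± 0.10 (SE; edgeR adjusted p = 0.0149) and Pfkfb4 at -1.49 ± 0.41 (SE; edgeR adjusted p = 0.0451). These 8 include 3 of the 6 pentose phosphate genes. The granulocyte genes were lower in MLL-ENL preGM too, 11 of 12 in the fit of all libraries, and the part of cell composition in these differences was not tested.

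Pdk2 lies at chr11:95026258-95041354 on the - strand (GRCm38), 73.2 kb from Col1a1, the locus named in the strain label. Of 40 genes tested within 1 Mb of Col1a1, Pdk2 was the only one that differed between MLL-ENL and WT preGM (2.5%, against 6.77% of all genes), and 5 differed in HSC (12.5%, against 4.12% of all genes). The difference of Pdk2 between the strains and its position beside the modified locus cannot be told apart from an effect of the fusion with these libraries.

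The response to MLL-ENL, its log2 change over WT, differed between preGM and HSC for 3 members, 1 with a positive and 2 with a negative difference, against 3.13% of all genes (1.08% positive, 2.06% negative). The difference is the preGM response minus the HSC response. For Tkt it was -1.91 ± 0.46 (SE; edgeR adjusted p = 0.0312), since Tkt was higher with MLL-ENL in HSC and had a log2 change of -0.26 ± 0.32 in preGM. Slc16a1 had a difference of 1.50 ± 0.32 (SE; edgeR adjusted p = 0.0163), with a response of 0.41 ± 0.23 in preGM and -1.09 ± 0.23 in HSC. Slc16a3 had a difference of -3.06 ± 0.70 (SE; edgeR adjusted p = 0.0228), with -1.87 ± 0.47 in preGM and 1.19 ± 0.52 in HSC. The Tkt call was lost without any 1 library other than MLL-ENL preGM replicate 1 or WT preGM replicate 2 (edgeR adjusted p = 0.0596 to 0.0966), and with a replicate block (0.053). Library size scaling ended it too (0.0958), with that of Slc16a3 (0.0738), and limma on log2(RPKM + 0.1) that of Tkt alone (limma adjusted p = 0.146). The Slc16a1 call was lost without MLL-ENL HSC replicate 2 (0.0685) or WT preGM replicate 1 (0.0607). That of Slc16a3 was lost without MLL-ENL HSC replicate 2, MLL-ENL preGM replicate 3, WT HSC replicate 3, or WT preGM replicate 1 or 2 (0.0521 to 0.0809). Without both preGM libraries that stood apart, 1 member had a positive difference and 6 a negative one, against 12.2% of all genes (6.73% positive, 5.45% negative). As within preGM, leaving out these libraries by itself lowers the difference for members in which they stood apart. Tkt then stood at -2.29 ± 0.17 (SE; edgeR adjusted p = 1.89e-06), and Pgd at -1.48 ± 0.20 (SE; edgeR adjusted p = 0.000427).

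Promoters of 4 members are shown because these genes mark the main patterns: Ldha and Pgk1 rose in preGM in both genotypes, and Tkt and Slc16a1 differed between MLL-ENL and WT HSC. Each runs from 250 bases before to 50 bases after the annotated start (RefSeq, GRCm38.p6, all on the + strand), and capitals mark ACGTG on either strand, the core of the hypoxia response element. The places are chr7:46845554-46845853 for Ldha, chrX:106186850-106187149 for Pgk1, chr3:104638414-104638713 for Slc16a1 and chr14:30548881-30549180 for Tkt.
Ldha promoter: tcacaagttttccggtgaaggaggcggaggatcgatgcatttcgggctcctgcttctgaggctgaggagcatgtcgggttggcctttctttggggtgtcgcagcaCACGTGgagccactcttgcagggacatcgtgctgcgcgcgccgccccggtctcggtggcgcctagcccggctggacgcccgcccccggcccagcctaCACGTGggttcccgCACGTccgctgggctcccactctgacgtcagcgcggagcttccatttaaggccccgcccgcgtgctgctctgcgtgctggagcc
Pgk1 promoter: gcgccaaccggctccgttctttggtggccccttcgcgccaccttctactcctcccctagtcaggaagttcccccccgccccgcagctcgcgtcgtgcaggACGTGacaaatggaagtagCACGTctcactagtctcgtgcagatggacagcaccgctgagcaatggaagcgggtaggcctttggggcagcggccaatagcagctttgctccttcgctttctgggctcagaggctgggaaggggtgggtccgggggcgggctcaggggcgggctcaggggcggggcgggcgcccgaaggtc
Slc16a1 promoter: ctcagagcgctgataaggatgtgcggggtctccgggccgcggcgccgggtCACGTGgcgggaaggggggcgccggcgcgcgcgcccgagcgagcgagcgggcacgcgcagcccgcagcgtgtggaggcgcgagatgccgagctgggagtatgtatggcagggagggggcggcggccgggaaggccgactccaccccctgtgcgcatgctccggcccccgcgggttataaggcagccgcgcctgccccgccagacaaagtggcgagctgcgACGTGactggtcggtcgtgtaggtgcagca
Tkt promoter: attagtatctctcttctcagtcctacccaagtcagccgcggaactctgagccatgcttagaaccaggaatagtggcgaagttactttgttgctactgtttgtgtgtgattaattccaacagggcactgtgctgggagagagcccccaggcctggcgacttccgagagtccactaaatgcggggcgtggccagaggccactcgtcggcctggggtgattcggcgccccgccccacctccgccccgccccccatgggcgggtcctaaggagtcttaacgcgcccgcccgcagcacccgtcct

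Of 33 members with a promoter entry, 19 (57.6%) had ACGTG on either strand in at least 1 promoter, against 28.8% of 10915 tested genes with an entry. Counted by promoter, 22 of 48 (45.8%) held it, against 19.6% of all 32851. CACGTG, the E-box that MYC with MAX binds and that contains ACGTG, was present for 5 of the 33 members (15.2%), against 11.6% of tested genes. Those 5 were Ldha, Slc16a1, Pdk2, Pfkfb3 and Pfkm. The median GC content was 61.0% over the members' promoters, 60.0% over those of tested genes and 52.7% over all promoters. Ldha and Slc16a1 hold the E-box, Pgk1 holds ACGTG alone, and these letters are not in the Tkt window. Ldha has a second promoter entry, which holds neither motif, and where a gene has several entries the one with the motifs was chosen for display.

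Of 41 tested genes among 54 others of these pathways, 16 were higher and 9 lower in preGM with MLL-ENL, and 11 and 8 in WT. The shares of all genes were 20.4% and 21.1% with MLL-ENL and 18.4% and 20.1% in WT. The list had medians of 0.22 and 0.19 on the log2 scale. Tigar, a fructose 2,6-bisphosphatase, had a log2 change in preGM of 3.38 ± 0.39 (SE; edgeR adjusted p = 9.16e-06) with MLL-ENL and 2.68 ± 0.38 (SE; edgeR adjusted p = 5.45e-05) in WT. Slc2a6, a glucose transporter of the same family as Slc2a1, had 5.11 ± 0.53 (SE; edgeR adjusted p = 2.98e-06) with MLL-ENL and 5.69 ± 0.56 (SE; edgeR adjusted p = 1.31e-06) in WT. Eno2, the neuronal enolase, fell, with -5.64 ± 0.88 (SE; edgeR adjusted p = 0.000144) with MLL-ENL and -3.54 ± 0.85 (SE; edgeR adjusted p = 0.00385) in WT. Between genotypes, 3 of the 41 were higher and none lower in HSC, and 1 was higher and 3 lower in preGM, with medians of -0.12 and 0.32. Of all genes, 3.19% were higher and 0.929% lower in HSC, and 3.7% and 3.07% in preGM. Without both preGM libraries that stood apart, 6 were higher and 4 lower in HSC, against 10.2% and 11.1% of all genes. In preGM, 2 were then higher and 4 lower, against 3.52% and 3.62%. In the fit of all libraries, Fbp1, a fructose bisphosphatase of gluconeogenesis that opposes phosphofructokinase, was the one higher in both cell types. Its level was 50.7 ± 15.4 CPM in MLL-ENL preGM and 4.01 ± 2.16 in WT preGM, with 85.3 ± 4.22 in MLL-ENL HSC and 4.99 ± 1.32 in WT HSC (SD, n = 3 each). The log2 change of Fbp1 with MLL-ENL was 3.64 ± 0.40 (SE; edgeR adjusted p = 3.67e-05) in preGM and 4.10 ± 0.41 (SE; edgeR adjusted p = 5.62e-05) in HSC. Bsg, the chaperone of the transporters encoded by Slc16a1 and Slc16a3, was higher with MLL-ENL in HSC by 1.64 ± 0.36 (SE; edgeR adjusted p = 0.0168), and Ldhd, a D-lactate dehydrogenase, by 1.96 ± 0.30 (SE; edgeR adjusted p = 0.00154). In preGM, Mpc2, a subunit of the mitochondrial pyruvate carrier, was lower with MLL-ENL by -1.34 ± 0.24 (SE; edgeR adjusted p = 0.0025), and Rbks, ribokinase, by -1.22 ± 0.26 (SE; edgeR adjusted p = 0.00832).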

How the data were processed

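The series holds 12 RNA-seq libraries of sorted and cultured HSC and preGM, and the sample titles gave the group and number of each. Per the file headers, the deposited files list exons, introns and transcripts, each with a read count and an RPKM value. The count is raw, and the RPKM was scaled by feature length and library size by the authors before deposit. HTSeq, edgeR, Bowtie2 (2.1.0) and TopHat2 (2.0.8) are named per the submitters' processing notes, without roles. The build they aligned to was not given in the sources used here. Transcripts were matched to GENCODE M21 on GRCm38 by identifier (95.8%), and the deposited exon counts were summed per gene over the non-overlapping exons with the most bases, which gave 37614 genes. Where 2 gene identifiers carry the symbol Aldoa, the one with more reads was used. The counts took no account of strand, so reads of overlapping genes cannot be told apart. Near-identical copies were found with BLAST+ 2.17.0.

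The tests came from a single quasi-likelihood fit to all 12 libraries with edgeR (4.0.16, under R 4.3.3), using group means, TMM factors and filterByExpr at a minimum count of 10 and a minimum total of 15. It was tested on simulated data first. SE is the absolute log2 change over the square root of the F statistic. All tests are two-sided, and adjusted p-values are Benjamini-Hochberg values over 15711 genes with a threshold of 0.05. Shares were compared with exact permutation tests, whose smallest p is 0.1 with 3 libraries against 3. Alternatives were DESeq2 1.42.0, limma 3.58.1 on log2(RPKM + 0.1), other scalings, filters, exon sets and library sets, and a replicate block. Copies added, exons beyond the midpoint towards the 3′ end, voom with library weights, and library size scaling without both libraries that stood apart were chosen after seeing the data. Which preGM libraries to leave out as standing apart was also decided from these data.

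The members and the lists (other genes of these pathways, the tricarboxylic acid cycle, transcriptional regulators, HIF targets, NRF2 targets and cell markers) were chosen with earlier results of these data known. Members called in at least 1 of 5 comparisons, or belonging to a family described, are given in every library. Of the other lists, at most 5 called genes per comparison are named, by size of change. Same-numbered replicates were checked for shared deviations, and their correlations lay between -0.10 and 0.10, so the numbers were not used to pair the libraries. In preGM the libraries that stood apart dominate these deviations, so the check cannot exclude a pairing. Figures were drawn with matplotlib 3.10.9.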

Additional observations from a re-analysis of the deposited data

Results flagged for a closer look

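For 3 of the 34 genes the response to MLL-ENL differed between preGM and HSC by the test of the difference itself, as the preGM response minus the HSC response on the log2 scale. The difference was -1.91 for Tkt, the transketolase of the pentose phosphate pathway (edgeR adjusted p = 0.0312). Tkt averaged 502 CPM in MLL-ENL preGM and 602 CPM in WT preGM, against 408 CPM in MLL-ENL HSC and 130.2 CPM in WT HSC. The difference was 1.50 for Slc16a1, which encodes the lactate transporter MCT1 (edgeR adjusted p = 0.0163), with every MLL-ENL HSC library below every WT HSC library. It was -3.06 for Slc16a3, which encodes the exporter MCT4 (edgeR adjusted p = 0.0228), with every MLL-ENL preGM library below every WT preGM library. Of all genes tested, 3.13% had such a difference. None of the 3 held under every alternative. The Tkt call was lost without any single library other than MLL-ENL preGM replicate 1 or WT preGM replicate 2 (edgeR adjusted p = 0.0596 to 0.0966). That of Slc16a1 was lost without MLL-ENL HSC replicate 2 or WT preGM replicate 1. That of Slc16a3 was lost without some single libraries and under library size scaling, and its lowest HSC library had 0.362 CPM.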

How the results depend on the processing

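No call of a member changed its direction under any alternative. Of 1505 values of called members under alternatives, 1347 kept the call and 158 lost it. The Tkt call in HSC held under all 26 alternatives, while none of the 4 calls between genotypes in preGM held without both libraries that stood apart. DESeq2 size factors within edgeR, no filter on low counts, and counts over the longest transcript left the numbers of members called in the 5 comparisons as they were. Depth was lowest in WT HSC, and the smallest member counts were those of Pdk2 and Slc16a3. Precision is otherwise limited by 3 libraries a group and by the 2 preGM libraries that stood apart. The cause of the changes below was not tested. Member counts below mostly lack the share of all genes called in each direction under the same setting. They show how far the calls move, not how the members compare with all genes.

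For MLL-ENL against WT in HSC, 647 genes were called, against 1342 with DESeq2, 1209 with limma on RPKM, 2508 in a fit of the HSC groups alone, 2589 with voom and library weights, 3369 without both libraries that stood apart and 3526 without both and scaled by library size. Members called higher numbered 2 in the HSC fit, 4 without both, 2 with voom and 7 without both and scaled by library size. Members called lower numbered 0 with library size scaling, 0 with limma on RPKM, 4 in the HSC fit, 6 without both and 2 without both and scaled by library size. Leaving out 1 library gave 312 to 1282 genes, 1 to 2 members higher and 0 to 1 lower.

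For MLL-ENL against WT in preGM, 1064 genes were called, against 1741 with DESeq2 and 4136 with voom. Members called higher numbered 0 with limma on RPKM, 0 in a fit of the preGM groups alone, 0 without both, 0 with exons beyond the midpoint towards the 3′ end, and 0 without both and scaled by library size. Members called lower numbered 0 with library size scaling, 0 with limma, 1 in the preGM fit, 8 without both, 13 with voom, and 7 without both and scaled by library size. Leaving out 1 library gave 566 to 1344 genes, 0 to 4 members higher and 0 to 2 lower.

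For the difference of the responses, 492 genes were called, against 1058 with DESeq2, 1926 without both, 2741 with voom and 1750 without both and scaled by library size. Members with a negative difference numbered 0 with library size scaling, 1 with limma, 6 without both, 5 with voom, and 7 without both and scaled by library size. Leaving out 1 library gave 299 to 694 genes, 0 to 1 members with a positive and 0 to 3 with a negative difference.

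For preGM against HSC with MLL-ENL, 6520 genes were called, against 10406 with voom. Members higher numbered 12 with library size scaling and 10 with limma. Members lower numbered 7 without both, where 26.5% of all genes were lower, 7 with voom, and 13 without both and scaled by library size. Leaving out 1 library gave 2 to 4. The shares of all genes lower with voom, and without both and scaled by library size, are not given here, so those counts have no background. In WT, 6044 genes were called, against 9103 without both and scaled by library size. Members higher numbered 11 with library size scaling and 9 with limma, and members lower 8 with library size scaling, 8 with limma, and 8 without both and scaled by library size.

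Whether the replicate numbers pair the libraries is not stated in the labels, and the check of shared deviations cannot exclude it. With the replicate number as a block, 502 genes were called between genotypes in HSC, with the same number of members as without it. In preGM, 864 genes were called, with 1 member higher and 2 lower. The difference of responses had 403 genes, 1 member positive and 1 negative. Between cell types, the block left 18 members higher and 4 lower with MLL-ENL, and 19 higher and 5 lower in WT.

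Scaled by library size, summed levels of all members were 15946 CPM in MLL-ENL preGM, 7519 in MLL-ENL HSC and 6551 in WT HSC. Sums without the most abundant member, here and below, are with TMM scaling. Without Aldoa they were 14605 CPM in MLL-ENL preGM, 4776 in MLL-ENL HSC and 4711 in WT HSC. For uptake and upper glycolysis they were 891 in MLL-ENL HSC and 733 in WT HSC under library size scaling. Without Gpi1 they were 630.1 in MLL-ENL preGM, 486 in WT preGM, 337 in MLL-ENL HSC and 312 in WT HSC. From aldolase to pyruvate kinase they were 9186 in MLL-ENL preGM, 3457 in MLL-ENL HSC and 3301 in WT HSC under library size scaling, and 7080.5, 1735 and 1936 without Aldoa. For lactate and pyruvate they were 3618 in MLL-ENL preGM, 1964 in MLL-ENL HSC and 1698 in WT HSC under library size scaling. Without Ldha they were 724 in MLL-ENL preGM, 595 in WT preGM, 447 in MLL-ENL HSC and 492 in WT HSC. For the pentose phosphate genes they were 1208 in MLL-ENL HSC and 819 in WT HSC under library size scaling, and 694 in WT HSC over the longest transcript. Without Taldo1 they were 876 in MLL-ENL preGM, 1183 in WT preGM, 541 in MLL-ENL HSC and 262 in WT HSC.

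Some differences of shares turned in sign over the longest transcript, in percentage points. The Hk2 share in preGM minus HSC in WT was 4.10, the Pfkl share in MLL-ENL minus WT preGM was 2.01, and the Pfkl share in preGM minus HSC in WT was -2.89. Leaving out 1 library, MLL-ENL minus WT in HSC ran from -1.39 to 3.12 for the Hk1 share and from -0.321 to 3.34 for the Hk2 share. In preGM it ran from -9.93 to 5.14 for the Hk2 share, from -3.47 to 2.26 for the Pfkl share and from -0.676 to 2.68 for the Pdk1 share. The Pfkl share in preGM minus HSC with MLL-ENL ran from -5.00 to 0.905.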

Other observations

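Genes of the tricarboxylic acid cycle, which oxidises the acetyl groups delivered by pyruvate dehydrogenase, were counted as a list of 21, with no test of the list as a set. The list also holds related enzymes outside the cycle, such as the cytosolic Idh1. With MLL-ENL, 17 of 21 were higher in preGM than in HSC and none lower, against 8 higher and none lower in WT. Of all genes, 20.4% were higher and 21.1% lower with MLL-ENL, and 18.4% and 20.1% in WT, which is the background for the other lists too. Between genotypes, 3.7% of all genes were higher and 3.07% lower in preGM, and 3.19% and 0.929% in HSC. The median log2 change was 1.27 with MLL-ENL and 0.61 in WT. Idh1, the cytosolic NADP-dependent isocitrate dehydrogenase, had a log2 change in preGM of 2.40 ± 0.36 (SE; edgeR adjusted p = 9.19e-05) with MLL-ENL and 2.54 ± 0.36 (SE; edgeR adjusted p = 5.05e-05) in WT. Idh3a, a subunit of the mitochondrial NAD-dependent enzyme, had 2.36 ± 0.44 (SE; edgeR adjusted p = 0.000618) with MLL-ENL and 1.53 ± 0.43 (SE; edgeR adjusted p = 0.0104) in WT. Without both preGM libraries that stood apart, 19 were higher with MLL-ENL and 17 in WT. Between genotypes none of the 21 was called in preGM or HSC in the edgeR fit of all libraries, with medians of 0.33 in preGM and -0.22 in HSC, while 8 were lower in MLL-ENL HSC without both. At an unadjusted p under 0.05, edgeR had 5 of the 21 higher and none lower in preGM and none either way in HSC, and DESeq2 called 1 higher in preGM and none in HSC.

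Of 15 tested HIF target genes outside the pathway, 6 were higher and 2 lower in preGM with MLL-ENL, and 7 and 2 in WT, with medians of 0.55 and 0.77. Ero1l, an oxidase of the endoplasmic reticulum, had a log2 change in preGM of 2.32 ± 0.23 (SE; edgeR adjusted p = 2.08e-06) with MLL-ENL and 2.97 ± 0.24 (SE; edgeR adjusted p = 1.51e-07) in WT, and of -1.18 ± 0.22 (SE; edgeR adjusted p = 0.00379) for MLL-ENL over WT in preGM. Between genotypes, none was higher and 3 were lower in preGM (median -0.61), Ero1l, Ddit4 and Ankrd37, while in HSC Ndrg1 was higher and Vegfa, the vascular growth factor, was lower (median 0.17). Vegfa had a log2 change with MLL-ENL of -1.67 ± 0.41 (SE; edgeR adjusted p = 0.0316) in HSC. Of 25 tested regulators, 5 were higher and 6 lower in preGM in each genotype, close to the shares of all genes, with medians of -0.32 with MLL-ENL and -0.04 in WT. Between genotypes 2 were higher and 2 lower in preGM and none differed in HSC, with medians of -0.12 and -0.02. At an unadjusted p under 0.05, edgeR had 3 regulators higher and 1 lower in HSC, and DESeq2 called none. Txnip, a repressor of glucose uptake, had a log2 change in preGM of -2.39 ± 0.27 (SE; edgeR adjusted p = 8.51e-06) with MLL-ENL and -2.30 ± 0.27 (SE; edgeR adjusted p = 8.91e-06) in WT. Meis1, a Hox cofactor that is a known target of MLL fusions, had a log2 change with MLL-ENL of 3.40 ± 0.39 (SE; edgeR adjusted p = 6.53e-05) in preGM.

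Of 10 NRF2 target genes, 3 were higher and 1 lower in preGM with MLL-ENL, and 5 and 1 in WT, with medians of 0.43 and 0.92. Between genotypes 2 were lower in preGM and 1 was higher in HSC, with medians of -0.43 and 0.23. Gsr, glutathione reductase, which uses the NADPH of the pentose phosphate pathway, had a log2 change with MLL-ENL of -1.35 ± 0.22 (SE; edgeR adjusted p = 0.00144) in preGM, and Ftl1, ferritin light chain, had -1.72 ± 0.33 (SE; edgeR adjusted p = 0.00465). Hmox1, heme oxygenase, had 3.43 ± 0.62 (SE; edgeR adjusted p = 0.00494) in HSC. These genes are also expressed by granulocytic and macrophage cells, and the part of cell composition was not tested.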
